A study of Homo sapiens with 19 samples.

Results

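Interferon-stimulated genes are the genes that cells switch on when they sense a virus or an interferon, and 35 of them were followed here among the 24198 genes of an RNA table from U2OS cells, an established human osteosarcoma line. The 35 were taken as a list of gene symbols, matched through the RefSeq identifiers of the table. No measured value was a criterion for the list, but it was chosen with earlier results of these data known. The conditions were EP400 siRNA and a mock siRNA directed against GFP, each given for 72 hr to cells of the same line. Each had 1 RNA-seq library and 1 list of chromatin immunoprecipitation (ChIP) peaks for Pol II, the Mediator subunit MED26 and the histone variants H3.3 and H2AZ. Lists of H3K18ac and H3K4me1, histone marks of active regions and enhancers, came from mock cells alone, and 3 EP400 immunoprecipitations came as 1 list, for which the labels name no siRNA. EP400 is an ATPase that remodels chromatin as part of the TIP60-EP400 complex, and the series title names its role in placing H3.3 at promoters and enhancers as the question.

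Interferons of the alpha, beta and lambda kinds bind receptors whose kinases phosphorylate transcription factors such as STAT2. With IRF9, STAT2 is part of the complex ISGF3, which binds the interferon-stimulated response element (ISRE) in promoters of these genes. Interferon gamma acts at another element, GAS. Many of the products bind viral RNA, stop translation or conjugate the ubiquitin-like protein ISG15 to other proteins, and several genes of the set are also switched on by IRF transcription factors without interferon.

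The ISRE is the sequence feature that these genes share, and it was looked up in the window from 250 bases before to 50 bases after each RefSeq gene start (GRCh38.p14), for which 27 of the 35 genes had an entry. OAS2, OASL, IFIT2, MX2, IRF7, DHX58, USP18 and UBA7 had none. The ISRE core, GAAA followed by any 2 bases and GAAA again, searched on both strands, was present for 19 of the 27 genes, against 4.38% of the 27305 symbols with a promoter in the table. A longer form, the core followed by CT, was present for 12 of the 27 genes against 0.322% of symbols. The GAS letters TTCNNNGAA, which read the same on both strands, were present for 7 of the 27 genes, against 9.38% of symbols. Windows of 5 genes with the core and of OAS1 and IRF1, which lack those letters, are shown because their RNA is set out below. They run 5′ to 3′ on the strand of the gene, and capitals mark the letters of every ISRE core and GAS match, on either strand, with touching or overlapping matches run together. The IFIT1 window is chr10:89392373-89392672 on the plus strand, IFIT5 is chr10:89414318-89414617 on the plus strand, ISG15 is chr1:1013247-1013546 on the plus strand and IFI6 is chr1:27672143-27672442 on the minus strand. BST2 is chr19:17405581-17405880 on the minus strand, OAS1 is chr12:112906712-112907011 on the plus strand and IRF1 is chr5:132490724-132491023 on the minus strand.
IFIT1: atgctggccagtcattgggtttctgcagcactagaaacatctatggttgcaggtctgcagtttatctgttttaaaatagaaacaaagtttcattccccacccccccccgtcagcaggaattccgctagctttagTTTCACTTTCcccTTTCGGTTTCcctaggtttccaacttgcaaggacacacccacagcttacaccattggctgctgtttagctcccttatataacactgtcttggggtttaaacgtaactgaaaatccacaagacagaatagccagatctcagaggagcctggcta
IFIT5: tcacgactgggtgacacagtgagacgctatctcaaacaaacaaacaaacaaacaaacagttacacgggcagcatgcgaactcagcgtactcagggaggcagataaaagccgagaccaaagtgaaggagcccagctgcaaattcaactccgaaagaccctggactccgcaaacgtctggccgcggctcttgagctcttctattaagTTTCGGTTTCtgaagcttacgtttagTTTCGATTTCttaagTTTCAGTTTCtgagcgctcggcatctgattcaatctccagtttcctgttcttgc
ISG15: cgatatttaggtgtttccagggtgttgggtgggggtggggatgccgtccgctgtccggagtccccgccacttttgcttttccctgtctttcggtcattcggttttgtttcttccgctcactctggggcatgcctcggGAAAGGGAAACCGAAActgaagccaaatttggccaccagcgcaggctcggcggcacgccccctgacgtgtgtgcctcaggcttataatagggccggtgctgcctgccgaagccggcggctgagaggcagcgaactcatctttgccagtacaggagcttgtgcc
IFI6: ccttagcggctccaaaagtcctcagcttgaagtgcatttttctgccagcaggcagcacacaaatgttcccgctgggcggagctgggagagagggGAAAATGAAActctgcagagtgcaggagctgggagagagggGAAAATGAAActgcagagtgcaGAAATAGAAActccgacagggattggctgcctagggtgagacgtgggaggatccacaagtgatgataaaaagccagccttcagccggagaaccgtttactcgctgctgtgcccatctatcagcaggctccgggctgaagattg
BST2: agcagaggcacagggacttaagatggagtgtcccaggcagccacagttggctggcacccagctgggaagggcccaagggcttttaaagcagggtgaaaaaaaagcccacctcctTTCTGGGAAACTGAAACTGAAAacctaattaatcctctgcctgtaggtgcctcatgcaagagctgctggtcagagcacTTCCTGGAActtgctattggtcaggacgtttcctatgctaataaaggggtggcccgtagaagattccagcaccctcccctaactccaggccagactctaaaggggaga
OAS1: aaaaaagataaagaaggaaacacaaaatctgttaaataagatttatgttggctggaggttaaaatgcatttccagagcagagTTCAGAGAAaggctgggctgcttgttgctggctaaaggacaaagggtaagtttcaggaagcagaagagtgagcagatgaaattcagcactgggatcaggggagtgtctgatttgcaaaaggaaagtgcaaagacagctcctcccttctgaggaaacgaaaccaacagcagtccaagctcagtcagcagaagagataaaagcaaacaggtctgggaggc
IRF1: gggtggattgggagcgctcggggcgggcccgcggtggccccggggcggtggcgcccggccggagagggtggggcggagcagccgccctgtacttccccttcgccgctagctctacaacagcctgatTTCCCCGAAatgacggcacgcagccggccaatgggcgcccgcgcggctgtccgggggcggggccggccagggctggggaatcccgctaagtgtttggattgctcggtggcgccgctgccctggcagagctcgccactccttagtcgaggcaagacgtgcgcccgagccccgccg

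IFIT5 and IFI6 each held 3 ISRE cores, and IFIT1, ISG15 and BST2 held 2 each. Those of IFIT5 began at -45, -19 and -4 relative to the start, and those of IFI6 at -156, -115 and -93. In BST2 the cores stood beside 2 GAS matches. OAS1 and IRF1 each held 1 GAS match and no core, which says only that these letters are not in these windows.

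RNA is given as FPKM, a fragment number divided by transcript length and library size, which can be compared between genes and were summed over the transcripts of a gene. EP400 itself was at 2.28 FPKM in the EP400 siRNA library and at 10.04 FPKM in the mock library. Lower EP400 and any other effect of that siRNA cannot be told apart in this design. A single library stands for each condition, so there is no replicate spread and no test, and each ratio below describes these 2 libraries. A pseudocount of 1 was added to the FPKM of each library before the log2 ratio of EP400 siRNA over mock was taken, so the ratios of low genes are too small. Over the 11671 genes that averaged 1 FPKM or more the median was -0.20, and rescaling both libraries to the same sum moved it by 0.68. Among markers of the osteosarcoma and mesenchymal lineage, VIM was at 1132 and 618 FPKM and FN1 at 79.7 and 23.4 FPKM in EP400 siRNA and mock cells. COL1A1, another marker of that lineage, was at 60.8 and 376 FPKM, while COL1A2 and TWIST1 were near 0 in both. Leukocyte markers, whose cells respond strongly to interferon, summed to 0.425 FPKM in EP400 siRNA cells, with 2 of 7 genes at 0, and to 0.448 FPKM in mock cells, with 3 at 0. Those of plasmacytoid dendritic cells, which secrete it, summed to 0.247 and 0.201 FPKM over 3 genes. Epithelial markers summed to 12.8 FPKM after EP400 siRNA and 70.6 FPKM after mock siRNA over 5 genes, and their part in the interferon result was not tested. In bulk RNA, more cells in an interferon-responding state and more RNA per cell cannot be told apart.

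RNA of most of the 35 genes was higher after EP400 siRNA. Without any filter on level, 30 of the 35 genes had more FPKM in EP400 siRNA than in mock cells, against 49.4% of the 21034 genes with an FPKM above 0, and 17 of 35 were at least 2-fold higher, against 3.56% of those genes. None of the 35 was at least 2-fold lower, against 12.9% of genes. Among the 18 genes of the set at 1 FPKM or more in mock cells, a class that does not use the EP400 siRNA value, 8 were at least 2-fold higher, against 5.02% of the 11355 such genes. At a mean of 1 FPKM or more, 15 of 25 genes were at least 2-fold higher, against 6.11% of 11671 genes, and 0 at least 2-fold lower, against 22.9%. Of those 15, however, 7 were below 1 FPKM in mock cells and passed through their EP400 siRNA value, so they had to differ. The other 10 of the 35 genes did not reach that mean.

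**Figure D1:**
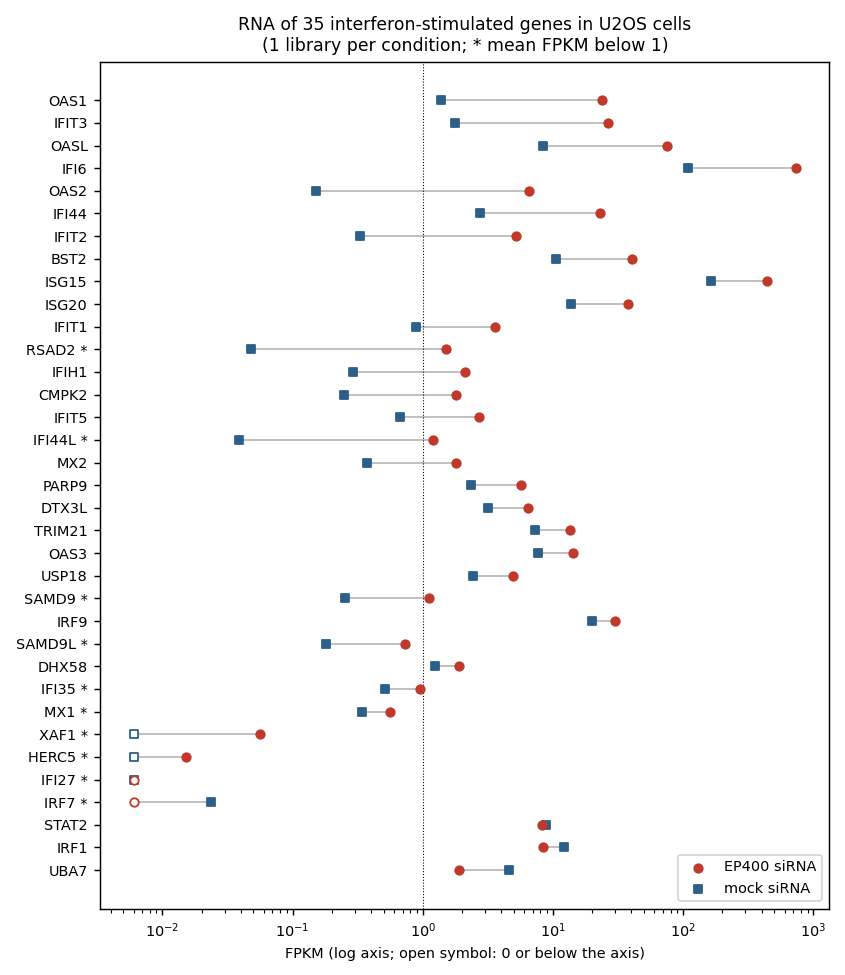
FPKM (log axis) of the 35 interferon-stimulated genes in the EP400 siRNA library (circles) and the mock library (squares), 1 library per condition, with an asterisk where the mean FPKM is below 1 and open symbols at 0 or below the axis. EP400 siRNA lies above mock for 30 of the 35 genes, and the gap is widest for OAS2, at 43.8 times its mock FPKM, among genes above 0 in both.

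The sensors and enzymes of the OAS family were higher in every case. OAS1, which makes oligoadenylates that activate RNase L on meeting double-stranded RNA, was at 23.6 FPKM after EP400 siRNA and at 1.39 FPKM after mock siRNA (log2 ratio 3.37). OAS2, its relative, was at 6.59 FPKM in EP400 siRNA cells and at 0.150 FPKM in mock cells, which by the value of a single fragment corresponds to about 1572 and 22 fragments. OAS3 was at 14.2 FPKM and 7.61 FPKM (0.82), the smallest ratio of the 3 neighbours on chromosome 12, which lie between 113344739 and 113449528 in hg19. OASL, a relative without synthetase activity that promotes RIG-I signalling, lies elsewhere on chromosome 12 and was at 75.6 FPKM in EP400 siRNA cells against 8.40 FPKM in mock cells (3.03). The helicase gene IFIH1, which encodes the RNA sensor MDA5, was at 2.10 FPKM and 0.292 FPKM, and DHX58, which encodes LGP2, at 1.90 and 1.24 FPKM.

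The higher RNA did not fall evenly on the transcripts. Of OAS1, NM_016816 was at 20.2 FPKM in EP400 siRNA cells and at 0.610 FPKM in mock cells, NM_002534 at 3.42 and 0.121 FPKM, while NM_001032409 was listed at 0 and at 0.659 FPKM. For OASL, NM_003733 held 70.3 FPKM after EP400 siRNA and 6.72 FPKM after mock siRNA, and NM_198213 5.25 and 1.67 FPKM. How the estimator divides reads among overlapping transcripts bears on such values, and limits for single transcripts were wide.

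The IFIT genes, whose products bind viral RNA and block its translation, lie together on chromosome 10 from 91061706 to 91180759. IFIT3 was at 26.3 FPKM in EP400 siRNA cells and at 1.78 FPKM in mock cells. IFIT2 was at 5.23 FPKM after EP400 siRNA and 0.331 FPKM after mock siRNA, and IFIT1 at 3.58 and 0.879 FPKM. IFIT5 was at 2.68 FPKM and 0.672 FPKM. Each of the 4 genes was higher in EP400 siRNA cells, but IFIT1, IFIT2 and IFIT5 were under 1 FPKM in mock cells. IFIT2 is among 3 genes of the set, with IFI44L and RSAD2, whose lower limit after EP400 siRNA, as deposited by the authors, was above the upper limit in mock cells. Its limits were 0.662 to 9.81 FPKM and 0.0243 to 0.638 FPKM. Such separation was seen for 21 of 21034 genes (0.0998%).

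Other effectors spanned the whole range of levels. IFI6, a mitochondrial and endoplasmic reticulum protein that restrains cell death, was at 737 FPKM in EP400 siRNA cells and at 109 FPKM in mock cells (2.75). IFI44 was at 22.8 FPKM and 2.77 FPKM (2.66), and its neighbour IFI44L at 1.20 FPKM and 0.0384 FPKM. These are the levels of about 508 and 10 fragments for IFI44L. RSAD2, which encodes the nucleotide-modifying enzyme viperin, was at 1.52 FPKM after EP400 siRNA and at 0.0479 FPKM after mock siRNA, about 383 and 8 fragments. CMPK2, a mitochondrial nucleotide kinase gene beside RSAD2 on chromosome 2, was at 1.79 and 0.249 FPKM. BST2, whose product tethers virions to the cell, was at 40.1 FPKM in EP400 siRNA cells and at 10.6 FPKM in mock cells (1.82). The exonuclease gene ISG20 was at 37.8 and 13.9 FPKM (1.38). The GTPase genes MX1 and MX2 were at 0.555 and 1.80 FPKM in EP400 siRNA cells and at 0.342 and 0.373 FPKM in mock cells, so that MX1, a standard marker of interferon exposure, stayed below 1 FPKM in both. SAMD9 and SAMD9L, growth-restraining antiviral genes, were also low, at 1.11 and 0.724 FPKM in EP400 siRNA cells and 0.254 and 0.180 FPKM in mock cells.

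Of the ISG15 system, the modifier itself and the deconjugating enzyme were higher and the activating enzyme was lower. ISG15 was at 440 FPKM after EP400 siRNA and at 163 FPKM after mock siRNA (1.42). USP18, which removes ISG15 and also dampens receptor signalling, was at 4.97 FPKM and 2.44 FPKM (0.79). UBA7, which activates ISG15 for transfer, was at 1.90 FPKM in EP400 siRNA cells and at 4.55 FPKM in mock cells (-0.94), at least 2-fold lower with a smaller pseudocount or on centring by chromosome, while it was -0.42 on rescaling to the same sum and 0 on centring by local gene density. HERC5, the ligase that carries out the transfer, was at 0.0153 FPKM in EP400 siRNA cells and listed at 0 in mock cells.

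The 4 transcription factors of the set were each within 2-fold of mock, or near 0 in both conditions. IRF9 was at 29.9 FPKM in EP400 siRNA cells and at 19.98 FPKM in mock cells (0.56). STAT2 was at 8.18 and 8.87 FPKM (-0.11), and IRF1, an early target of interferon gamma, at 8.39 and 12.2 FPKM (-0.49). For STAT2 and IRF1 the sign turned with the scaling, to 0.62 and 0.22 on rescaling to the same sum. Leaving out these and UBA7, the other 22 of the 25 genes that reached the mean were above 0 under every scaling, and 11 were at least 2-fold higher under each. No such count over all genes is given here, and 7 of the 25 passed through their EP400 siRNA value. On rescaling alone, 31.5% of all genes were at least 2-fold higher. STAT2 also divided by transcript, with NM_005419 at 7.79 FPKM after EP400 siRNA and 6.64 FPKM after mock siRNA and NM_198332 at 0.383 and 2.23 FPKM. IRF7, the factor that amplifies the response, was listed at 0 in EP400 siRNA cells and at 0.0236 FPKM in mock cells.

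Further genes of the set stood between these extremes. PARP9 and DTX3L, which form a complex of a ubiquitin ligase and its partner and share 1 locus in the table, were at 5.65 and 6.46 FPKM in EP400 siRNA cells and at 2.34 and 3.14 FPKM in mock cells. The reads of these overlapping genes may be split between them with error. TRIM21, an antibody-binding ubiquitin ligase gene, was at 13.5 FPKM after EP400 siRNA and 7.22 FPKM after mock siRNA (0.82). IFI35 was at 0.945 and 0.511 FPKM. XAF1, linked to cell death, was at 0.0560 FPKM after EP400 siRNA and listed at 0 after mock siRNA. The rows matched to IFI27 were listed at 0 in EP400 siRNA cells and at 4.56e-05 FPKM in mock cells, while 6 further rows at the same locus carry RefSeq identifiers without a symbol in the name table.

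The rest of the pathway was listed in 110 further genes, of which 76 reached a mean of 1 FPKM. Of these, 16 were higher by 2-fold or more and 12 lower by as much, against 6.11% and 22.9% of all 11671 genes, and the median log2 ratio was 0.30 against -0.20. At a mean of 5 FPKM or more that median was -0.26, against -0.57 over all 6978 such genes. Some of the 16, among them RIGI, DDX60, HERC6, SLFN5 and CD274, were below 1 FPKM in mock cells. They passed through their EP400 siRNA value, so they had to differ. Interferon genes themselves were near 0. The 13 listed summed to 0.197 FPKM in EP400 siRNA cells, where 9 were at 0, and to 0.0307 FPKM in mock cells, where 11 were at 0. The highest of them, IFNE, was at 0.0798 FPKM after EP400 siRNA and 0.0156 FPKM after mock siRNA, and IFNB1 was at 0.0199 FPKM and listed at 0. Among receptors and kinases, the receptor genes IFNAR1 and IL10RB had log2 ratios of 0.94 and 0.78. The kinase gene TYK2 was at 11.3 FPKM in EP400 siRNA cells and at 28.1 FPKM in mock cells (-1.24), with ratios of -0.53 on rescaling, -0.31 on centring by local gene density and -0.20 on centring by chromosome.

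Genes that sense viral nucleic acid differed among themselves. RIGI, which encodes the RNA sensor RIG-I, was at 5.003 FPKM in EP400 siRNA cells and at 0.357 FPKM in mock cells (2.15). DDX60 was at 2.86 and 0.240 FPKM (1.64) and EIF2AK2, the gene for the kinase PKR, at 5.34 and 1.36 FPKM (1.42). RIGI and DDX60 were below 1 FPKM in mock cells and reached the mean through their EP400 siRNA value, so they had to differ. IRF3, a factor that acts downstream of the sensors, was at 23.3 FPKM after EP400 siRNA and 62.8 FPKM after mock siRNA (-1.39), a ratio of -0.65 on rescaling, -0.36 on centring by density and -0.35 by chromosome. Of 13 measured sensing genes, 3 were at least 2-fold higher and 2 lower, beside 6.11% and 22.9% of all genes. On rescaling, 8 of the 13 were higher and 0 lower, beside 31.5% and 5.97% of all genes. At a mean of 5 FPKM or more, 0 of 8 were higher and 2 lower, beside 5.98% and 32% of all such genes. Of 5 measured genes that restrain the response, 0 were higher and 2 lower, beside 6.11% and 22.9% of all genes. On rescaling, 2 of these 5 were higher and 1 lower, beside 31.5% and 5.97%. Among the 5 was the signalling inhibitor SOCS1, at 1.44 FPKM in EP400 siRNA cells and 16.8 FPKM in mock cells (-2.87).

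Antigen presentation genes, which interferon gamma drives most strongly, had a median below 0 as deposited, as did all genes. Of 14 measured genes, 0 were at least 2-fold higher and 2 lower, beside 6.11% and 22.9% of all genes, with a median of -0.48 beside -0.20. The peptide-loading factor TAPBP was at 23.8 FPKM in EP400 siRNA cells and 58.8 FPKM in mock cells (-1.27, but -0.24 on centring by local gene density), and the immunoproteasome gene PSMB9 at 32.8 and 61.7 FPKM (-0.89). B2M, the light chain of class I molecules, was at 426 FPKM and 218 FPKM (0.97). On rescaling to the same sum the median of this list was 0.28, with 2 higher and 0 lower. Over all genes it was then 0.48, with 31.5% higher and 5.97% lower. On centring by density the median of the list was 0.43, beside 0 over all genes. Its sign thus depends on the scaling, and so does its side of the median of all genes. Of 35 further interferon targets measured, 12 were higher and 5 lower, beside 6.11% and 22.9% of all genes. At a mean of 5 FPKM or more, 6 and 5 of 21 were, beside 5.98% and 32% of all such genes. The median of those 21 was near 0, against -0.57 over all such genes. ZC3HAV1, an antiviral RNA-binding protein gene, was at 13.8 FPKM after EP400 siRNA and 2.25 FPKM after mock siRNA (2.19). Other members were HERC6 at 8.42 FPKM after EP400 siRNA and 0.941 FPKM after mock siRNA, SLFN5 at 6.53 and 0.651 FPKM and the immune ligand CD274 at 4.57 and 0.547 FPKM, which all passed the filter through their EP400 siRNA value.

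**Figure D2:**
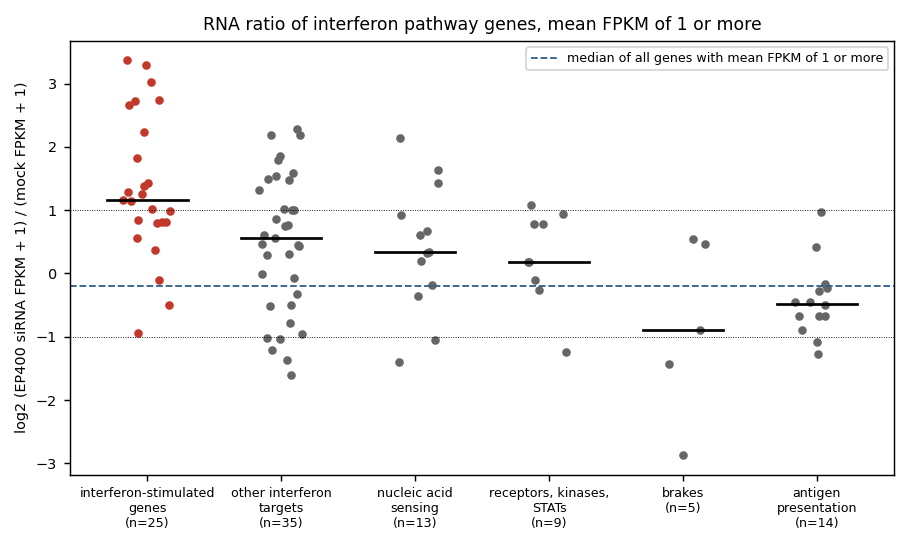
Log2 ratio of FPKM + 1, EP400 siRNA over mock, for the interferon-stimulated genes and the other pathway lists, each point a gene that averaged 1 FPKM or more. The dashed line is the median of all such genes at -0.20 and the dotted lines are 2-fold. Of the interferon-stimulated genes, 15 of 25 lie above the upper 2-fold line, 7 of which passed the filter through their EP400 siRNA value. Antigen presentation genes, at a median of -0.48, lie mostly below 0.

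Peaks were counted in the 2 kb around each end of a locus (hg19), because the table gives no strand, and the lists carry no height. EP400 was listed at an end of 5 of the 35 genes (OAS3, OASL, IFIT5, IFIH1 and IRF1), against 22.5% of 24076 genes. At IFIT5 there were 2 peaks, the first over the start, chr10:91174301-91174400 and chr10:91174751-91174800. At IFIH1 the peak was chr2:163174901-163174950, at OAS3 chr12:113377801-113377850 and at IRF1 chr5:131826001-131826250. These were 3 of the 15 genes at least 2-fold higher and 2 of the 20 others. Among genes with high ratios, OASL had an EP400 peak at an end, while OAS1, OAS2, BST2 and IFI6 had none there. IFIT3 had none at an end but had a peak inside its locus, chr10:91090351-91090450. At the locus shared by PARP9 and DTX3L an EP400 peak lay inside, chr3:122282951-122283150, with Pol II, MED26 and H2AZ in both conditions and mock H3K18ac over it, so that a count at locus ends misses this site.

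H2AZ was the factor listed at most of the genes in mock cells. It was at an end of 15 of the 35 genes after EP400 siRNA (41.7% of all genes) and of 24 after mock siRNA (57.2%). Where strand could be read from RefSeq, for 25 genes with their own locus, mock H2AZ was at the start of 18 and at the other end of 1. No such count over all genes is given here, so this placement is not shown to be particular to the set. Among the 17 genes under 1 FPKM in mock cells, 12 had mock H2AZ, against 41.6% of such genes. No gene of the set had H2AZ after EP400 siRNA alone, against 372 of all 24076 genes. In mock cells alone, 9 genes of the set had it, namely IFIT3, IFI6, IFI44, ISG15, MX1, MX2, RSAD2, SAMD9 and UBA7. Thus 62.5% of the genes with a mock H2AZ peak also had one after EP400 siRNA, close to 70.2% over all genes. At the 15 genes with H2AZ in both conditions, the summed peak width at the ends was smaller after EP400 siRNA at 11, equal at 1 and larger at 3 (OAS2, OASL and STAT2). It was 100 bp after EP400 siRNA and 1200 bp after mock siRNA at IFIT5, and 600 and 100 bp at OAS2. The H2AZ list as a whole covered 6361100 bp after EP400 siRNA and 16954800 bp after mock siRNA. No count of genes with narrower H2AZ over all genes is given here, so the narrowing is not shown to be particular to this set.

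H3.3 was listed at an end of 9 of the 35 genes after EP400 siRNA (22.1% of all genes) and of 13 after mock siRNA (47.5%). It was in both conditions at 5 genes, in EP400 siRNA cells alone at OAS3, IFI44, STAT2 and SAMD9, and in mock cells alone at OASL, IFI6, ISG15, ISG20, IRF7, IRF9, DHX58 and UBA7. Over all 24076 genes, 1071 had it in EP400 siRNA cells alone. The retained share, 38.5% of the genes with a mock peak, was near the 37.2% of all genes. OASL, IFI6, ISG15 and ISG20 thus had more RNA and no listed H3.3 at an end after EP400 siRNA. Over the whole genome the H3.3 list was also shorter, with 41439 peaks against 79838, and the share that depth took in this was not tested.

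Pol II was at an end of 13 of the 35 genes after EP400 siRNA (57.8% of all genes) and of 18 after mock siRNA (61% of all genes). Of the 18 with a mock peak, 66.7% also had one after EP400 siRNA, against 89.6% over all genes. The 6 that had Pol II in mock cells alone were OASL, IFI6, IFI35, IRF9, DHX58 and TRIM21, each with more FPKM after EP400 siRNA, and OASL, IFI35, IRF9 and DHX58 share an end window with another gene. HERC5 was the 1 gene of the set with it after EP400 siRNA alone, against 748 of all 24076 genes. Of the 15 genes at least 2-fold higher, 8 (OAS1, OAS2, IFIT1, IFIT2, IFIT3, IFI44, MX2 and BST2) had no Pol II peak anywhere in the locus or the 2 kb around it in either condition, although the RNA of OAS1, IFIT3, IFI44 and BST2 exceeded 20 FPKM after EP400 siRNA. At ends, 16 of the 35 genes and 8637 of all 24076 genes had no Pol II peak in either condition. A count over whole loci is not given here for all genes.

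MED26 was at an end of 12 of the 35 genes after EP400 siRNA (50.2% of all genes) and of 14 after mock siRNA (52.9%), and IFIH1 and ISG15 had it in mock cells alone. Its retained share of 85.7% stood beside 88.8% over all genes. The same 8 higher genes that lacked Pol II also lacked MED26 in the locus in both conditions, and 18 of all 35 genes lacked it there. At ends, 21 of the 35 genes and 10563 of all 24076 genes had no MED26 peak in either condition. The mock-cell marks were at an end of 15 of the 35 genes for H3K18ac (50%) and of 6 for H3K4me1 (21.8%). IRF1, lower in EP400 siRNA cells as deposited, was the single gene with a peak in all 11 lists, and BST2 and IFI27 had a peak in none.

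**Figure D3:**
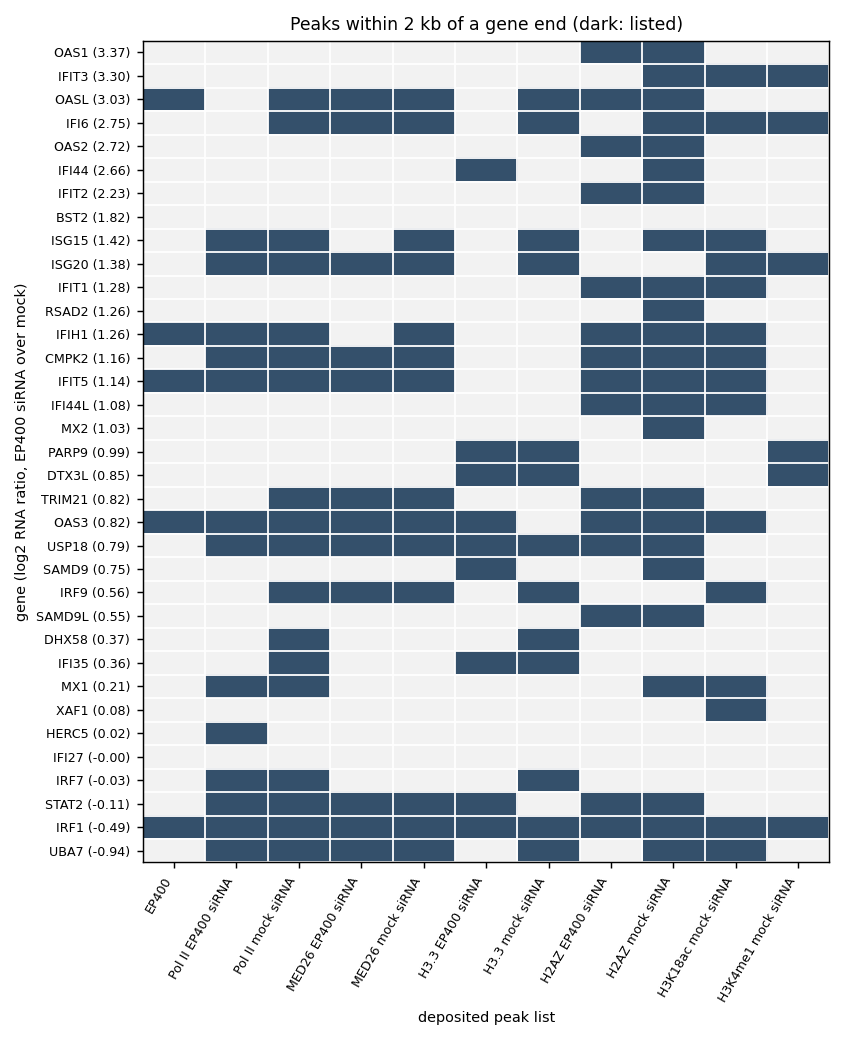
Peaks within 2 kb of a gene end (dark squares) for each of the 35 genes (rows, ordered by the log2 RNA ratio printed beside the symbol) and each of the 11 deposited peak lists (columns). H2AZ in mock cells fills 24 of 35 rows, while BST2 and IFI27 are empty across all lists.

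**Figure D4:**
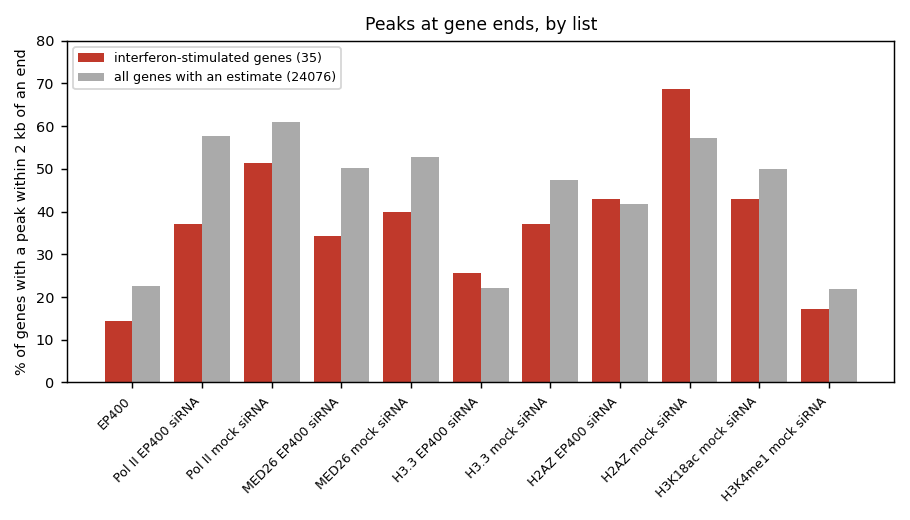
Percent of genes with a peak within 2 kb of an end in each list, for the 35 interferon-stimulated genes and for all 24076 genes with an estimate. The 35 genes stand at 13 with Pol II after EP400 siRNA and 18 after mock siRNA, below the shares of all genes at 57.8% and 61%.

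Levels in mock cells bear on peak counts, so genes of like level were set side by side. Among genes at 1 to 10 FPKM in mock cells, Pol II was at an end of 4 of 12 interferon-stimulated genes after EP400 siRNA, against 76.7% of 6120 genes, and of 7 of 12 after mock siRNA, against 82.3%. Mock H3K18ac was at 3 of the 12, against 67% of such genes. Mock H2AZ was at 9 of the 12, against 73.7%. Below 1 FPKM, mock H3K18ac was at 7 of 17 genes of the set, against 29.5% of such genes. Pol II was at 6 of 17 in each condition, against 37.6% after EP400 siRNA and 38.9% after mock siRNA. At 10 FPKM or more, mock H3K18ac was at 5 of 6, against 80.2%. Pol II was at 3 of 6 after EP400 siRNA, against 84.7%, and at 5 of 6 after mock siRNA, against 89.9%. The lower shares of Pol II and H3K18ac at 1 to 10 FPKM were thus not seen in every class. With so few genes per class, these shares describe the lists and carry no test.

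**Figure D5:**
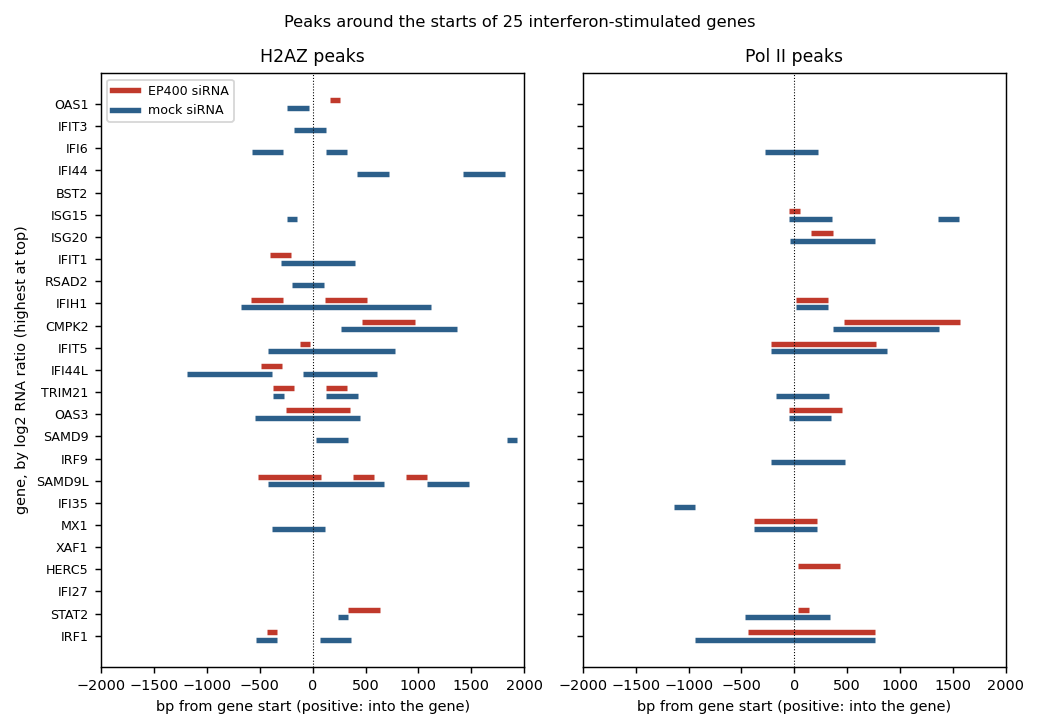
Positions of peaks around the gene start (bp, positive into the gene) for genes with a strand in RefSeq, ordered by log2 RNA ratio with the highest at the top, after EP400 siRNA and after mock siRNA. Mock H2AZ peaks lie within 500 bp of the start at 18 of 25 genes, against 11 of 25 after EP400 siRNA.

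Promoter letters and RNA can be read together for the 18 genes that had both an entry and a mean of 1 FPKM or more. With an ISRE core, 9 of 13 were at least 2-fold higher, with the lowest log2 ratio at 0.82 (OAS3), the highest that of IFIT3 and a median of 1.28. Without one, 2 of 5 were, OAS1 and CMPK2, with ratios from -0.49 (IRF1) to 3.37 (OAS1) and a median of 0.56. The groups overlap and are small, and some of these genes reached the mean through their EP400 siRNA value. Over all 11671 genes at that mean, 6.11% were at least 2-fold higher. RNA of the other genes with an ISRE core is not given here, and a link between these letters and the RNA was not tested.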

How the data were processed

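RNA values are FPKM per transcript row with confidence limits, deposited by the authors for 1 library per condition. The tools in the submitters' processing notes are Cuffdiff 2.0.2, TopHat2 2.0.8 and Bowtie 0.12.9, with build hg19. For the peak caller and the annotation release the answer is "not given in the sources used here". Each ChIP file holds peak positions deposited by the authors, with no height. The inputs were not analysed here.

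Rows were matched to symbols by RefSeq identifier (47555 of 48669), rows under 200 nt (2116) were left out, and the rest were summed per gene. Genes with a failed estimate (122 of 24198) were dropped. No total count came with the table, so depth was read from low values: 1 fragment was worth 0.0139 FPKM × kb in the EP400 siRNA library and 0.0217 in the mock library, and 95% of low values lay within 0.2 of a whole multiple. Fragment numbers derived from it are approximate, and no count model was fitted, as 1 library per condition allows no test. A peak counted at an overlap of 1 bp. Scripts used Python 3.11.15 and pandas 2.3.3 and were tested on simulated data.

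The 35 genes and the other lists were chosen with earlier results of these data known. Besides EP400, the 35 genes and, of every other list, up to 4 measured genes with the largest log2 ratio in size could be named; IFNE, IFNB1 and the cell markers were named after their values were seen. Alternatives covered the pseudocount, the filter, 4 scalings, transcript handling, window sizes and peak width. The value of 1 pathway gene is not reported here.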

Additional observations from a re-analysis of the deposited data

Results flagged for a closer look

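At the locus of IFI27 on chromosome 14, 94577079 to 94583036, 6 rows whose RefSeq identifiers have no symbol in the name table summed to 141.902 FPKM in EP400 siRNA cells and to 5.04 FPKM in mock cells, while the rows matched to IFI27 were near 0 in both. They are given here because they lie outside the matched genes and were above the mock library. NM_001288995 was at 63.5 FPKM after EP400 siRNA and listed at 0 after mock siRNA, NM_005532 was at 49.3 and 0.984 FPKM, and NM_001288960 at 29.0 and 1.64 FPKM. The lower limits of these rows were 0. Added to IFI27, they would give a log2 ratio of 4.56.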

How the results depend on the processing

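The number of genes at least 2-fold higher, 15 of 25, was 8 of 13 at a mean FPKM of 5 or more, and within 1.5 times of 15 under the other alternatives. The number lower, 0, was 1 (UBA7) with a pseudocount of 0.1 or 0.5 and on centring by chromosome. The median of 1.16 was 1.85 and 1.42 with pseudocounts of 0.1 and 0.5, 0.99 with no filter, 1.42 at 5 FPKM or more, 1.36 on median centring, 2.07 on rescaling to the same sum and 1.31 on centring by local gene density. For the other pathway genes, 16 of 76 higher became 7 of 51 at 5 FPKM or more and 38 of 76 on rescaling. The 12 lower became 1 on rescaling, 2 on centring by density and 4 by chromosome. The median of these genes, 0.30, was 0.17 with no filter, -0.26 at 5 FPKM or more, 0.49 on median centring, 0.99 on rescaling and 0.50 on centring by density. Over all genes, 6.11% higher became 5.98% at 5 FPKM or more and 31.5% on rescaling. The 22.9% lower became 5.97% on rescaling, 11% on centring by density and 13.5% by chromosome. The median of all genes was -0.57 at 5 FPKM or more, 0.48 on rescaling and 0 on each centring. Peak counts moved for EP400 to 10 over the whole locus and to 3 when the list kept its wider peaks, as many as were dropped, with ties in width broken at random. Kept in this way, Pol II and MED26 after EP400 siRNA were at 7 and 5 genes, mock MED26 at 8, H3.3 after EP400 siRNA at 3 and mock H3K18ac at 9. H3.3 after EP400 siRNA was at 4 genes with ends of 1 kb. No counts over all genes under these peak settings are given here, so the moves are not shown to be particular to this set. Their cause was not tested. Adding the unnamed rows at member loci, an alternative chosen after seeing the data, gave 16 of 26 higher. No paired analysis was possible because the replicate numbers belong to the EP400 immunoprecipitations and inputs, which came as 1 list or were not analysed here. With 1 library per condition no library could be left out. Depth limits genes below 1 FPKM, where a value can rest on about 10 fragments.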

Other observations

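Chemokine and cytokine genes, many of which respond to NF-kB as well as to interferon, were listed apart from the interferon pathway. Of 10 measured at a mean of 1 FPKM or more, 7 were higher by 2-fold or more and 1 was lower, beside 6.11% and 22.9% of all genes, with a median log2 ratio of 2.45 against -0.20 for all 11671 genes. CXCL3, a neutrophil chemokine gene, was at 12.5 FPKM in EP400 siRNA cells and at 0.543 FPKM in mock cells, and CXCL8 at 23.7 and 0.435 FPKM. CSF2, which encodes GM-CSF, was at 70.6 FPKM after EP400 siRNA and 5.45 FPKM after mock siRNA. TNF stayed at 0.0344 and 0.0269 FPKM and was named after its value was seen. Several of these genes passed the filter through their EP400 siRNA value.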
